A study of Mus musculus with 2931 samples.

Results

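The antioxidant and glutathione genes of the mouse lung endothelium were taken as the symbols of the deposited count table that name a superoxide dismutase (Sod), a glutathione peroxidase (Gpx), a peroxiredoxin (Prdx), a thioredoxin reductase (Txnrd) or a cytosolic or mitochondrial glutathione S-transferase (Gsta, Gstk, Gstm, Gsto, Gstp, Gstt, Gstz), together with Cat, Txn1, Txnip, Hmox1, Nqo1, Gclc, Gclm, Gsr, Gss and Srxn1. The rule found 45 genes among the 18072 of the table. The study sorted single endothelial cells (EC) from the distal lung of mice and sequenced each as a plate-based Tn5 library, which covers whole transcripts and carries no molecular identifiers. Its 2931 cells came from 10 mice, with 1 female and 1 male in each of 5 groups. The normal-air groups were E18.5, an embryonic age given as days of gestation, and the postnatal days P1, P7 and P21. The hyperoxia group was taken at P7. No genotype is named for any group, and the strain, the oxygen level and the length of exposure are not given in the sources used here. Whether a mouse name stands for 1 animal is not stated, so p-values hold for these named mice. For age and hyperoxia they measure the spread between the mice of a group. Between subtypes they measure the spread left once each mouse's own level is taken out.

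Superoxide dismutases turn superoxide into hydrogen peroxide, which catalase, the peroxiredoxins and the glutathione peroxidases then reduce. Glutathione peroxidases draw electrons from glutathione, which glutathione reductase (Gsr) regenerates, and most peroxiredoxins draw them from thioredoxin, which thioredoxin reductases regenerate. Many of these enzymes are induced by the transcription factor NRF2 (Nfe2l2), which KEAP1 holds back in unstressed cells and which binds the antioxidant response element near its target genes. The lung endothelium lies behind a thin barrier to inhaled oxygen, and breathing high oxygen in early life is used to model the injured lung of preterm infants.

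The core of the antioxidant response element, TGACNNNGC, was looked for on both strands in RefSeq promoters of GRCm38.p6. Each is 300 bases long, from 250 before to 50 after a listed start of a gene, and a gene can have more than 1 such start. The search was meant to show which of these genes carry the core at a listed start. Overlap of the core with other motifs was not examined. Among all 32851 promoters 12.392% held a match, and by gene 13.991% of 27025 genes had one in at least 1 promoter. A promoter was listed for 38 of the 45 genes. None was listed for Hmox1, Gclc, Gsr, Gsta4, Gstt2, Prdx6 and Sod3, so these were not searched. Of the 38 searched, 8 held a match, which is 21.053%. They were Gclm, Txnrd1, Prdx1, Sod1, Srxn1, Gsta3, Gstm5 and Gstm7. The first 4 are printed because Gclm, Txnrd1 and Prdx1 are textbook NRF2 targets, and because Sod1 is the member found in the largest share of cells. They lie at chr3:122245307-122245606, chr10:82858956-82859255, chr4:116685349-116685648 and chr16:90220512-90220811, in that order, all on the plus strand. Capitals mark the match, which in each of the 4 is on the strand opposite to the gene.
Gclm: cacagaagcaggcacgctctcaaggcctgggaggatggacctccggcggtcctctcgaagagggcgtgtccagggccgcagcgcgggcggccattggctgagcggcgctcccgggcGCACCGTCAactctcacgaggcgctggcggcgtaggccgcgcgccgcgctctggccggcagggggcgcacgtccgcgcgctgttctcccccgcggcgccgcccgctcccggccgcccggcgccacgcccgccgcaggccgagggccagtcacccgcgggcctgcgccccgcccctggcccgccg
Txnrd1: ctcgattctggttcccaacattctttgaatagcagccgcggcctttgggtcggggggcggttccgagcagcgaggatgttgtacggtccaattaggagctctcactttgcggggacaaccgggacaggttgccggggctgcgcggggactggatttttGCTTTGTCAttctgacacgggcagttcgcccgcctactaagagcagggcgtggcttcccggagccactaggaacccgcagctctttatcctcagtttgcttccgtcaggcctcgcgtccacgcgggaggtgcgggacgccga
Prdx1: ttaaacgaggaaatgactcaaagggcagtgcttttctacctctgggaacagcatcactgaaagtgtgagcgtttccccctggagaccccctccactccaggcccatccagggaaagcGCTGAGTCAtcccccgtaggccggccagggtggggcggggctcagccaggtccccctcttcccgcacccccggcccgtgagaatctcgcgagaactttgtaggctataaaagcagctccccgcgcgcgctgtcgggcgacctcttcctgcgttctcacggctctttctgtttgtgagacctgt
Sod1: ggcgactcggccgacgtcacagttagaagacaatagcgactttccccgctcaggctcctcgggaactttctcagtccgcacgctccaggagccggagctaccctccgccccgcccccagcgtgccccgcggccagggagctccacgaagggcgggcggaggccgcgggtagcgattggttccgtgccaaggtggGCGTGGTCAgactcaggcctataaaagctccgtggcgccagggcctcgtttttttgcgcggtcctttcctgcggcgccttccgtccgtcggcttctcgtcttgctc
The matches start at -134 in Gclm, -92 in Txnrd1, -133 in Prdx1 and -56 in Sod1, counted from the start listed for the printed promoter. For Txnrd1 this start lies inside the gene, which begins at chr10:82833951 in GENCODE M21. A match is a description of these letters and not a measured binding site. Gpx3 and Nqo1, an NRF2 target described below under hyperoxia, were searched and held no match in these promoters.

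Levels were compared between genes as reads per kilobase of exon and 1000000 reads (RPKM), over all cells of a mouse. Of the 45 genes 7 had a mean of at least 100 RPKM, 16 lay between 10 and 100, 13 between 1 and 10, and 9 below 1. Thioredoxin (Txn1), the electron donor of most peroxiredoxins, was highest at 582 ± 208 RPKM (SD, n = 10 mice). Gstm1, a glutathione S-transferase that couples glutathione to reactive compounds, followed at 435 ± 193 RPKM. The cytosolic peroxidase Gpx1 (233 ± 113), the cytosolic peroxiredoxin Prdx1 (228 ± 53.5) and the cytosolic dismutase Sod1 (205 ± 137) came next, and these neighbours in the order did not differ beyond their spread. Prdx2 had 153 ± 41.8 RPKM and Txnip, which binds and inhibits thioredoxin, had 124 ± 38.1 RPKM. The genes that make and regenerate glutathione were low per length, with 11.5 ± 8.21 RPKM for Gsr, 6.98 ± 2.32 for Gclm, 4.22 ± 1.86 for Gclc and 3.95 ± 1.14 for Gss. Catalase (Cat) had 34.2 ± 13.3 RPKM, Hmox1, which degrades haem, 28.7 ± 11.6, and the quinone reductase Nqo1 8.13 ± 8.81.

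**Figure D1:**
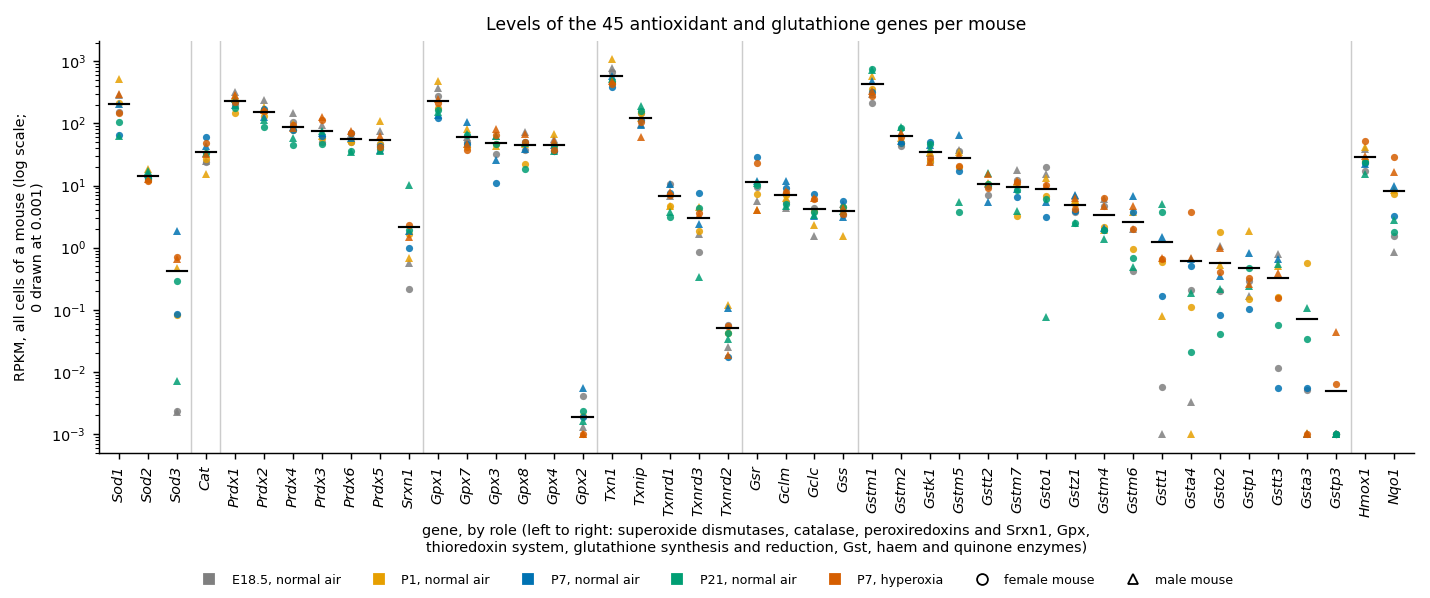
Level of each of the 45 genes in RPKM on a log axis, 1 point per mouse over all of its cells, coloured by age and treatment, shaped by sex and ordered by role, with a bar at the mean and values of 0 drawn at 0.001. Txn1 and Gstm1 stand highest at 582 and 435 RPKM, and Gsr, Gclm, Gclc and Gss lie between 3.95 and 11.5 RPKM.

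The share of cells with a read followed the levels only in part. Sod1 had a read in 93.8% of cells, Txn1 in 87.85%, Prdx1 in 87.4% and Prdx2 in 77.2%. Gstm1 had a read in 74.1% of cells, whereas Gpx1 had one in 59.95% at a lower level per length. The lipid hydroperoxide reductase Gpx4 was found in 72.1% of cells at only 45.1 ± 10.3 RPKM. Gstp1 was found in 17.6% of cells with 1391 reads in all, and Txnrd2 in 8.32% with 417 reads. At the other end, Gpx2 had 11 reads and Gstp3 9 reads in the whole table. Counts of Gstm, Gstp and Gsta genes, and of Txn1, Prdx2 and Gpx4, are uncertain because near-identical genes or processed copies elsewhere in the genome could share reads with them, and how such reads were counted is not stated.

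Depth differed between mice, from 56564316 reads in the P7 male to 331392982 in the P7 female, with 212 to 359 cells a mouse. Reads were summed over the cells of a subtype in each mouse where at least 8 cells were at hand, which gave 48 sums, and levels of 1 gene are given below as reads per 1000000 of the sum (CPM). The 6 pan-endothelial markers added up to 3211 to 12618 CPM in every sum. Marker lists of other cells were lower throughout, with at most 345 CPM for 5 erythroid genes, 316 for 6 mesenchymal, 204 for 6 epithelial, 181 for 6 leukocyte and 120 for 3 platelet genes. The 45 genes together made up 3212 to 9181 CPM. The subtype names are the authors' and how they were assigned is not given in the sources used here. Where they rest on the same RNA profiles, differences between subtypes describe those classes and are not independent of them.

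**Figure D2:**
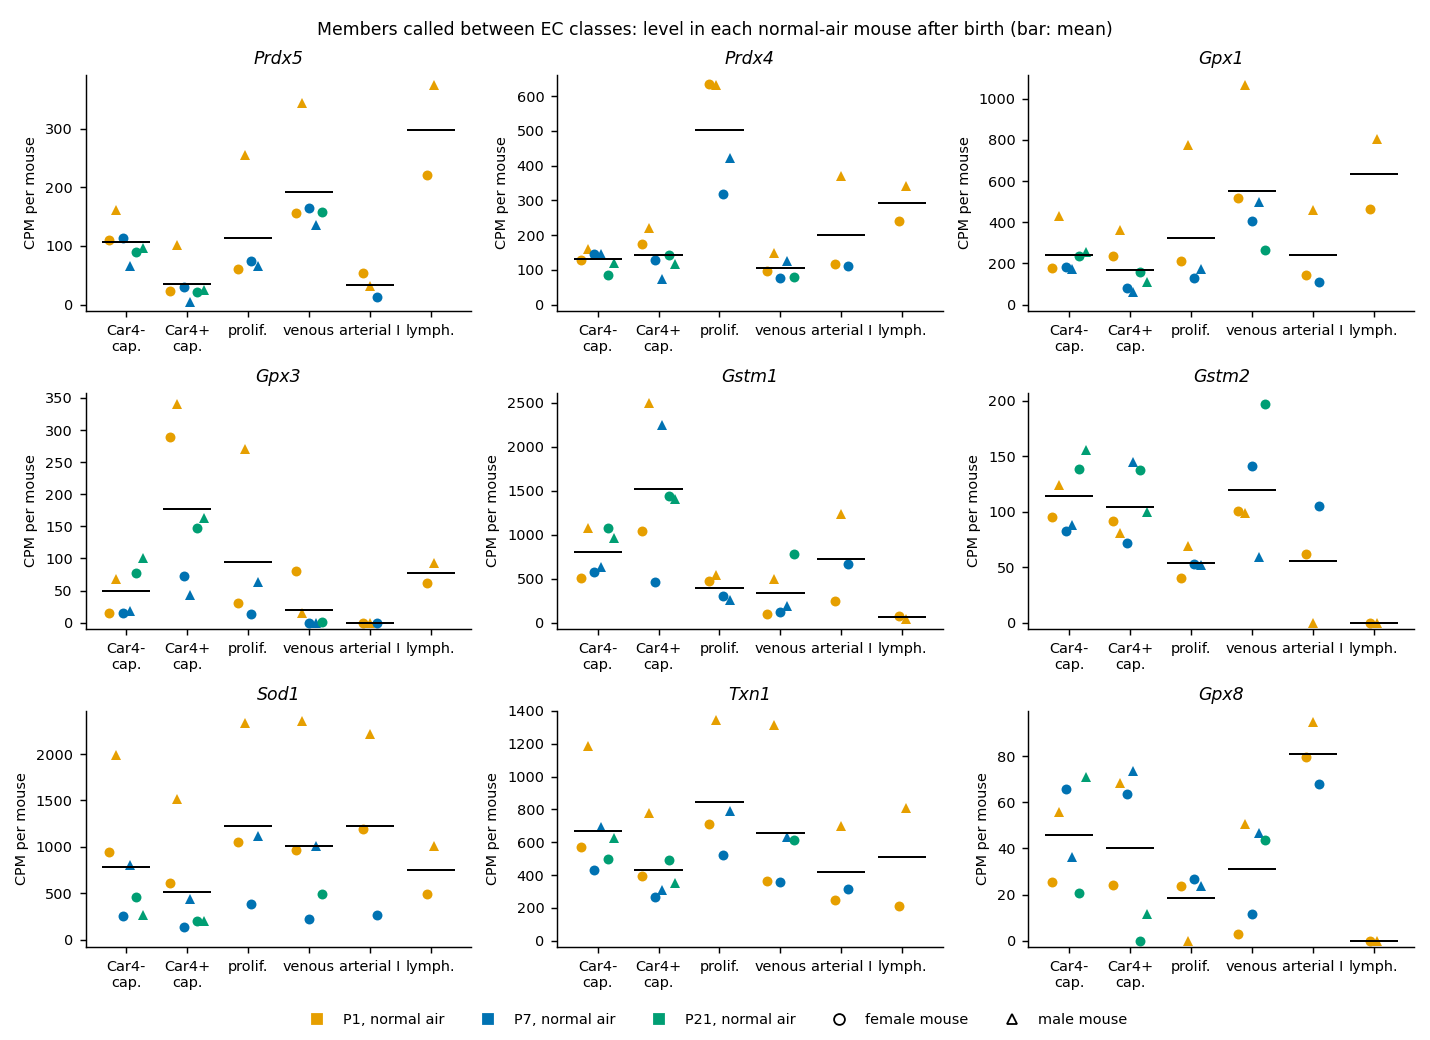
Level of the 9 genes called between subtypes in each normal-air mouse after birth, in CPM on linear axes, 1 point per mouse and subtype, with a bar at the mean. Prdx4 is set apart in proliferative EC, Prdx5 is low in Car4+ capillaries and arterial EC I, and Gstm2 and Gpx8 are at 0 in lymphatic EC.

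Subtypes were compared within mice, in normal air after birth, against Car4- capillaries (the Early and Late labels together), the general capillary cells of this lung. Car4+ capillaries are the large capillary cells that carry carbonic anhydrase at the gas-exchange surface. Of the 43 genes tested in each of the 5 comparisons, 9 gene-subtype differences passed an adjusted p of 0.05 in edgeR's quasi-likelihood test, with Benjamini-Hochberg adjustment over all 14902 genes tested. They were 1 in Car4+ capillaries (3.5% of all genes were called there), 1 in proliferative EC (0.55%), 1 in venous EC (0.96%), 1 in arterial EC I (0.342%) and 5 in lymphatic EC (3.45%). The median log2 difference of the genes from Car4- capillaries was -0.36 in Car4+ capillaries (-0.28 over all genes), -0.28 in proliferative EC (-0.28), -0.04 in venous EC (-0.21), -0.48 in arterial EC I (-0.54) and -0.17 in lymphatic EC (-0.22).

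Among the peroxiredoxins, Prdx5 was lower in Car4+ capillaries and Prdx4 higher in proliferative EC. Prdx5, which acts in mitochondria, peroxisomes and the cytosol, lies at chr19:6906697-6910106 in GENCODE M21 on GRCm38. In Car4+ capillaries it had 23.8 and 102 CPM in the P1 female and male, 29.2 and 4.14 at P7, and 21.999 and 25.6 at P21. In Car4- capillaries the lowest of the 6 mice had 65.5 CPM, the median was 103 and the highest 161. The Car4+ value was lower in 6 of 6 mice, and only the P1 male, at 102 against 161 CPM, reached into the range of the Car4- values. The means were 34.5 ± 34.3 and 106 ± 31.8 CPM (SD, n = 6 each), a fitted log2 difference of -1.74 (SE 0.39, adjusted p = 0.0134 in edgeR). A read was found in 5.19% to 35.3% of Car4+ cells and in 20.9% to 47.4% of Car4- cells of a mouse. The call held in 12 of 14 alternatives, with adjusted p from 9.21e-05 to 0.0625, and ended without the P7 female (0.0625) or without the mouse as a term (0.0543).

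Prdx4, the peroxiredoxin of the endoplasmic reticulum, lies at chrX:155323918-155340754. It had 634 CPM in proliferative EC of the P1 female, 632 in the P1 male, 318 in the P7 female and 423 in the P7 male. Its Car4- values ran from 83.9 to 161 CPM with a median of 136, so the subtypes did not overlap. The means were 502 ± 158 (n = 4) and 130 ± 27.2 CPM (n = 6), a fitted log2 difference of 1.80 (SE 0.28, adjusted p = 0.0013 in edgeR). The E18.5 mice, which were not in this fit, had 284 and 419 CPM in proliferative EC, against 189 and 245 CPM in nonproliferative embryonic EC. A read was found in 85.5% to 94.1% of proliferative cells and 15.3% to 57.8% of Car4- cells of a mouse. The call held in 13 of 14 alternatives (adjusted p 2.71e-09 to 0.0913) and ended without the P1 female (0.0913).

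Among the glutathione peroxidases, Gpx1 was higher in venous EC, and Gpx3 had no read in arterial EC I. Gpx1 (chr9:108338903-108340343) had 518 and 1068 CPM in venous EC of the P1 female and male, 408 and 498 at P7, and 266 in the P21 female. Car4- values ran from 171 to 431 CPM with a median of 210.5, and the venous value was higher in 5 of 5 mice. The P21 female and the P1 Car4- male made the ranges overlap. The means were 552 ± 305 (n = 5) and 242 ± 98.8 CPM (n = 6), a fitted log2 difference of 1.14 (SE 0.27, adjusted p = 0.0442 in edgeR). The call held in 9 of 14 alternatives (adjusted p 0.00048 to 0.226) and ended without the P1 female (0.193), P1 male (0.114), P7 female (0.189) or P7 male (0.223), and without the mouse as a term (0.226). Outside the fit, venous EC had 591 and 746 CPM under hyperoxia, where Car4- capillaries had 261 and 259. At E18.5 they had 696 and 713 CPM, and the only Car4- sum of that day, 13 cells of the female, was higher at 899. High Gpx1 after birth in normal air was not particular to venous EC. Lymphatic EC had 462 and 806 CPM without a call, and the 1 sum of arterial EC II, which was not tested, had 838. The means were lower in proliferative EC (323), arterial EC I (239) and Car4+ capillaries (168).

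Gpx3, the peroxidase secreted into plasma, lies at chr11:54902453-54910377. Arterial EC I of the P1 female, P1 male and P7 female gave 0 reads of it in 41 cells and 28098521 reads. Car4- capillaries of the 6 mice had 14.5 to 101 CPM with a median of 42.5 and a mean of 48.8 ± 37.8. Against a floor of 3 reads over the arterial sums, 0.107 CPM, Gpx3 was at least 457-fold lower for counting error alone (adjusted p = 0.0358 in edgeR). Unlike the fit, this bound is not paired by mouse. It sets the mean of all 6 Car4- mice, P21 included, against the 3 mice with an arterial sum. A cell with a read of Gpx3 held 344 of them on average over the whole table. A single such cell would thus lie above this floor. The arterial sums of both hyperoxia mice and the E18.5 female were also at 0, whereas the E18.5 male had 96.8 CPM, all of it from 7.14% of its 14 cells. The call held in 10 of 14 alternatives (adjusted p 2.61e-47 to 0.237) and ended without the P1 male (0.237), P7 female (0.0702), P7 male (0.0606) or P21 female (0.0706). Each arterial sum held only 9 to 16 cells, so Gpx3 was not detectable at this depth rather than shown to be absent.

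Lymphatic EC carried the most differences, all 5 of them lower than in Car4- capillaries, as were 2.34% of all genes tested. The lymphatic side of the fit rests on the P1 female (26 cells) and P1 male (13 cells) alone. Gstm2 (chr3:107981702-107986453), a mu-class transferase, had 0 reads in these 39 cells and 32878963 reads, whereas the 6 Car4- sums had 82.6 to 155 CPM with a median of 109. Against a floor of 0.0912 CPM it was at least 1247-fold lower for counting error alone (adjusted p = 0.00048 in edgeR). Unlike the fit, this bound is not paired by mouse. It sets the mean of all 6 Car4- sums against lymphatic sums of P1 alone. A cell with a read of Gstm2 held 197 of them on average over the whole table, above this floor. The neighbouring gene Gstm1 (chr3:108012255-108017973) had 75.5 and 46.1 CPM in lymphatic EC of the P1 female and male, and 504 to 1080.4 CPM in Car4- capillaries, with no overlap. The means were 60.8 ± 20.8 (n = 2) and 805 ± 264 CPM (n = 6), a fitted log2 difference of -3.58 (SE 0.73, adjusted p = 0.00484). Lymphatic EC outside the fit had 80.2 CPM of Gstm1 in the E18.5 male and 108 in the hyperoxia female, and 0 and 8.11 CPM of Gstm2.

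Gpx8, a peroxidase of the endoplasmic reticulum (chr13:113042753-113046410), also had 0 reads in lymphatic EC of both P1 mice. Car4- capillaries had 20.6 to 71.0 CPM with a mean of 45.9 ± 21.3. Against the same floor Gpx8 was at least 503-fold lower for counting error alone (adjusted p = 0.029 in edgeR). This bound, too, uses the mean of all Car4- mice and is not paired by mouse. A cell with a read of Gpx8 held 193 of them on average over the whole table, above this floor. Lymphatic EC of the E18.5 male were at 0 as well, and those of the hyperoxia female had 30.0 CPM.

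Sod1 (chr16:90220754-90226329) and Txn1 (chr4:57943373-57956411) were lower within both P1 mice. Sod1 had 497 CPM in lymphatic EC against 942 in Car4- capillaries of the P1 female, and 1006 against 1994 in the P1 male. Txn1 had 209 against 571 CPM in the female and 807 against 1186 in the male. Both genes overlapped between subtypes over all mice, and the P1 male was the highest postnatal normal-air mouse in each subtype. The fitted log2 differences were -1.18 (SE 0.24, adjusted p = 0.00565) for Sod1 and -1.14 (SE 0.27, adjusted p = 0.0164) for Txn1.

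The lymphatic calls depended on single mice and on the model. Without the P1 female 1 of the 5 was called, Gstm1, and adjusted p was 0.0724 for Gstm2, 0.348 for Gpx8, 0.0968 for Sod1 and 0.416 for Txn1. Without the P1 male 1 was called, Gstm2, with 0.301 for Gstm1, 0.245 for Gpx8, 0.328 for Sod1 and 0.128 for Txn1. Gpx8 was also not called without the P7 female (0.0647) or the P7 male (0.0605). Not only single mice mattered: with the hyperoxia mice added Gpx8 was at log2 -3.61 (adjusted p = 0.331), and without the mouse as a term Sod1 (0.45) and Txn1 (0.504) were not called. Over the 14 alternatives of each gene adjusted p ran from 1.5e-11 to 0.0724 for Gstm2, from 2.79e-05 to 0.301 for Gstm1, from 6.53e-07 to 0.348 for Gpx8, from 0.00101 to 0.45 for Sod1 and from 0.00477 to 0.504 for Txn1. Under RLE scaling the median log2 difference of all genes between lymphatic EC and Car4- capillaries moved by 0.26, from -0.22 to 0.04, and Txn1 was then not called (log2 -0.89, adjusted p = 0.0713). Over all 4 lymphatic sums the 4 proliferation markers added up to 631 to 1013 CPM, against 31.8 to 165 CPM over all 9 Car4- sums. Both ranges include sums of E18.5 and hyperoxia, which were not in the fit. The part of this in the 5 differences was not tested.

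Other members with large differences between subtypes missed the threshold. Gstm1 had 1042, 2493, 458, 2252, 1436 and 1401 CPM in Car4+ capillaries of the P1, P7 and P21 females and males, against 504, 1079, 578, 629, 1080.4 and 962 in Car4- capillaries of the same mice. It was higher in 5 of 6 mice, with a fitted log2 difference of 1.17 (adjusted p = 0.131 in edgeR). Nqo1 had 69.1 and 60.04 CPM in lymphatic EC of the P1 mice and a mean of 2.32 ± 2.77 CPM in Car4- capillaries, without overlap (log2 7.12, adjusted p = 0.282). Hmox1 had 141 and 215 CPM in the same lymphatic sums against 48.0 ± 19.6 CPM (log2 1.61, adjusted p = 0.676). Both haem and quinone enzymes were also high in lymphatic EC of the E18.5 male, at 41.6 CPM of Nqo1 and 215.5 of Hmox1.

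The other genes of the pathway were taken from 7 lists with 53 genes in all, covering NRF2 control, glutathione supply, NADPH supply, glutaredoxins and related reductases, microsomal transferases, haem and iron, and sources of reactive oxygen. Over all 16 comparisons 2 of these genes were called, both of the haem and iron list and both higher in lymphatic EC, where 51 of the 53 were tested and 1.11% of all genes were called as higher. Fth1, the heavy chain of the iron store ferritin, had 4119 and 4906 CPM in lymphatic EC of the P1 female and male against 1360 ± 756 CPM in Car4- capillaries (n = 6), where the highest mouse had 2818. Its fitted log2 difference was 1.08 (adjusted p = 0.0302 in edgeR). Slc40a1, the iron exporter ferroportin, had 69.2 and 10.7 CPM against 1.19 ± 1.59 CPM (log2 6.65, adjusted p = 0.0357). Neither gene's subtypes overlapped.

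The leading gene of each role varied between mice over all cells as follows. Sod1 was highest in the P1 male at 2055 CPM and lowest in the P21 male at 245, with 263 in the P7 female. Txn1 ran from 412 CPM in the P7 female to 1122 in the P1 male, and Gpx1 from 176 in the P7 female to 684 in the P1 male. The P1 male was thus the highest mouse for these 3 genes.

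Prdx1 ran from 443 CPM in the P1 female to 968 in the E18.5 male, and Gstm1 from 314 in the E18.5 female to 1123 in the P21 female. Cat ran from 40.5 CPM in the P1 male to 159 in the P7 female. Gsr ran from 11.1 CPM in the P1 male to 79.3 in the P7 female, and Hmox1 from 26.7 in the P21 male to 90.4 in the hyperoxia female. The P1 male and P7 female therefore lay at opposite ends for Cat and Gsr, in the reverse order to Txn1 and Gpx1.

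Age was compared with both mice of a day against both of another. In edgeR's quasi-likelihood test 0 genes of this set were called in any of the 7 comparisons of age, and limma called 0 as well. Between nonproliferative embryonic EC at E18.5 and Car4- capillaries at P1, 1 of 42 genes tested had an unadjusted p under 0.05, against 9.42% of all genes, and 0.494% of all genes were called. For Car4- capillaries 7 of 42 had an unadjusted p under 0.05 between P1 and P7, against 11.3% of all genes with 0% called, and DESeq2 called 1 (2.71% of all genes), Gstt1. Between P7 and P21 it was 7 of 42, against 10.5% with 0.266% called, and DESeq2 called 2 (4.76%), Gpx3 and Gstm5. For Car4+ capillaries 7 of 41 had such a p between P1 and P7 (6.28% of all genes, 0% called) and DESeq2 called 2 (2.08%). It was 3 of 41 between P7 and P21 (5.24%, 0.00814% called), where DESeq2 called 2 (2.1%). In proliferative EC 0 of 38 had one between E18.5 and P7 (5.25%, 0.0458% called), and DESeq2 called 0 (1.51%). In venous EC 3 of 39 had one between E18.5 and P1 (8.71%, 0.0162% called), and DESeq2 called 3 (4.37%). DESeq2 called 0 between embryonic EC and the P1 capillaries (3.82% of all genes). The shares beside DESeq2 counts are those of all genes it called.

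Gpx3 was the member with the smallest unadjusted p in Car4+ capillaries between P1 and P7. It had 289.5 and 341 CPM in Car4+ capillaries of the P1 female and male, 72.8 and 43.7 at P7, and 148 and 163 at P21. The P7 mice were lowest and no day overlapped another. The fitted log2 difference was -2.35 between P1 and P7 (p = 0.000551, adjusted p = 0.73 in edgeR) and 1.38 between P7 and P21 (adjusted p = 0.858).

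In Car4- capillaries Gpx3 had 15.2 and 67.6 CPM at P1, 14.5 and 17.4 at P7, and 77.7 and 101 at P21. The P21 mice were above both P7 mice, with a fitted log2 difference of 2.62 (p = 0.00149, adjusted p = 0.159 in edgeR). It was called in 3 of 15 alternatives, namely by DESeq2 and without the P1 female or the P1 male, with adjusted p from 0.00224 to 0.668 over all of them. The males of P7 and P21 shared a sequencing run, and in its CD31-gate cells Gpx3 had 138 CPM at P21 against 22.3 at P7. The females of both days shared another run, where the order was the reverse: 50 mesench-gate Car4- cells of P21 had 0.661 CPM (22 reads) and 197 CD31-gate cells of P7 had 12.1. Gate and age cannot be told apart in that run. A single run held cells of both P1 and P7, with only 5 Car4- and 6 Car4+ cells of P7, so no within-run value is given and run and age cannot be told apart there. These 6 Car4+ cells were mesench-gate cells of the P7 male and held most reads of its Car4+ sum. The Car4+ values of that mouse in the comparisons of age thus rest mainly on them.

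The Car4- class joins the Early and Late labels, and the days drew on different ones. Late cells were 11.6% and 1.64% of the class in the P1 female and male, 21.4% and 1.72% at P7, and 98.5% and 98.9% at P21. The difference between P7 and P21 thus also sets Early-labelled against Late-labelled cells. Among Late cells alone Gpx3 had 4.12 CPM in the P7 female (44 cells) and 78.9 and 102 in the P21 mice, while the P7 male had 2 such cells. The hyperoxia mice, with 1.31% and 4.55% Late cells, and the P7 mice were mostly of the Early label.

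Several other members differed between P1 and P7 without passing the adjustment. Cat had 187 and 128 CPM in Car4- capillaries of the P7 female and male against 82.5 and 62.5 at P1 (log2 1.03, adjusted p = 0.385 in edgeR), and in Car4+ capillaries 135 and 131 against 44.8 and 2.68 (log2 2.76, adjusted p = 0.73). Sod1 had 256 and 803 CPM in Car4- capillaries at P7 against 942 and 1994 at P1 (log2 -1.65, adjusted p = 0.387). Gpx1 had 82.1 and 61.0 CPM in Car4+ capillaries at P7 against 236 and 362 at P1 (log2 -1.98, adjusted p = 0.73), and DESeq2 called it. None of these groups overlapped, which can arise by chance at this number of mice, and the share of all genes without overlap was not counted.

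Gstm5 and Nqo1 stood out at other steps. Gstm5 had 5.03 and 9.57 CPM in Car4- capillaries of the P21 female and male against 23.5 and 139 at P7 (log2 -3.31, p = 0.000947, adjusted p = 0.139 in edgeR). Gstm5 was at 0 reads in the 44 Late cells of the P7 female and at 26.9 CPM in its 162 Early cells, and the P21 cells were nearly all Late. Nqo1 had 59.2 and 31.2 CPM in venous EC at P1 against 0.975 and 0 at E18.5 (log2 6.25, adjusted p = 0.358), and was called in 5 of 15 alternatives. In the same venous sums Gpx3 had 81.2 and 15.7 CPM at P1 and 0 reads at E18.5 in 22 cells. For counting error alone this is at least 310-fold higher (adjusted p = 0.217 in edgeR).

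**Figure D3:**
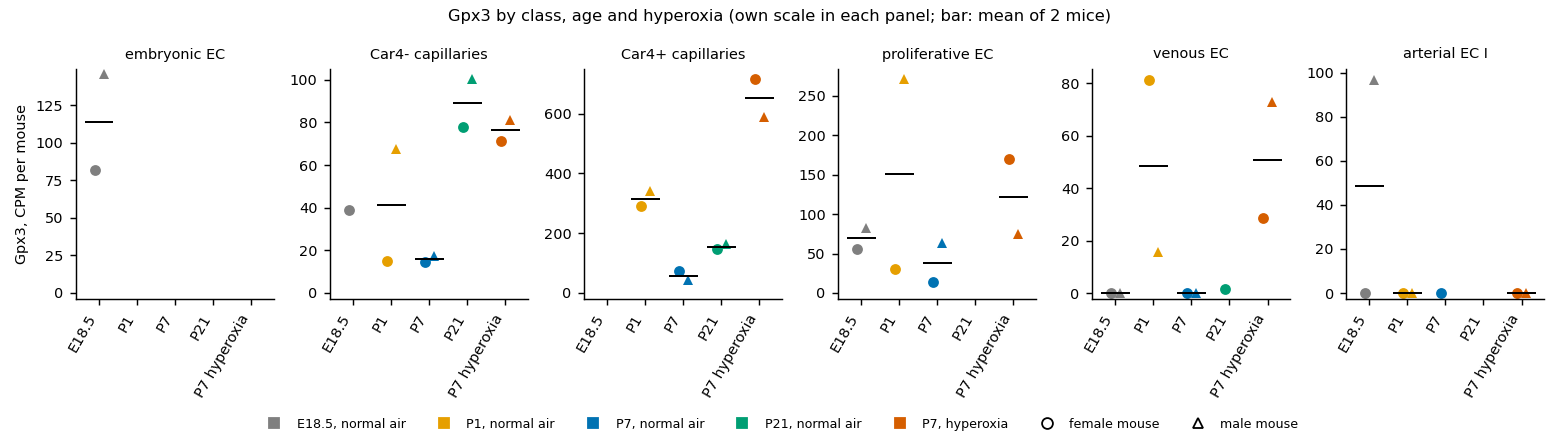
Gpx3 level in CPM on a linear axis of its own for each subtype, 1 point per mouse, in order of age with hyperoxia last, and a bar at the mean of 2 mice. The hyperoxia mice are the highest of Car4+ capillaries at 714 and 588 CPM, and arterial EC I are at 0 in each mouse with a sum but the E18.5 male.

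At P7, 4 subtypes had enough cells to set the hyperoxia mice against those in normal air. The hyperoxia female and the P7 female shared no sequencing run, so run and hyperoxia cannot be told apart between the females. The Car4+ sum of the P7 male joined 18 CD31-gate cells with 6 mesench-gate cells of another run. The 6 cells held most of its reads. Car4+ values of that mouse below, unless given within its run, rest mainly on them, and the part of gate and run was not tested. In edgeR's quasi-likelihood test 0 of the members were called in any of the 4, and limma also called 0. In Car4- capillaries 3 of 42 had an unadjusted p under 0.05, against 5.52% of all genes, with 0.0136% of all genes called and 1 member called by DESeq2, which called 1.25% of all genes. In Car4+ capillaries it was 6 of 41 (6.16% of all genes, 0% called), and DESeq2 called 3 (2.16%). In proliferative EC it was 0 of 38 (2.59%, 0% called), and DESeq2 called 0 (0.87%). In venous EC it was 3 of 39 (2.69%, 0% called), and DESeq2 called 1 (0.746%). The median log2 difference of the members was -0.15 in Car4- capillaries (-0.01 over all genes), 0.11 in Car4+ capillaries (-0.06), 0.23 in proliferative EC (0) and 0.50 in venous EC (0.01).

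**Figure D4:**
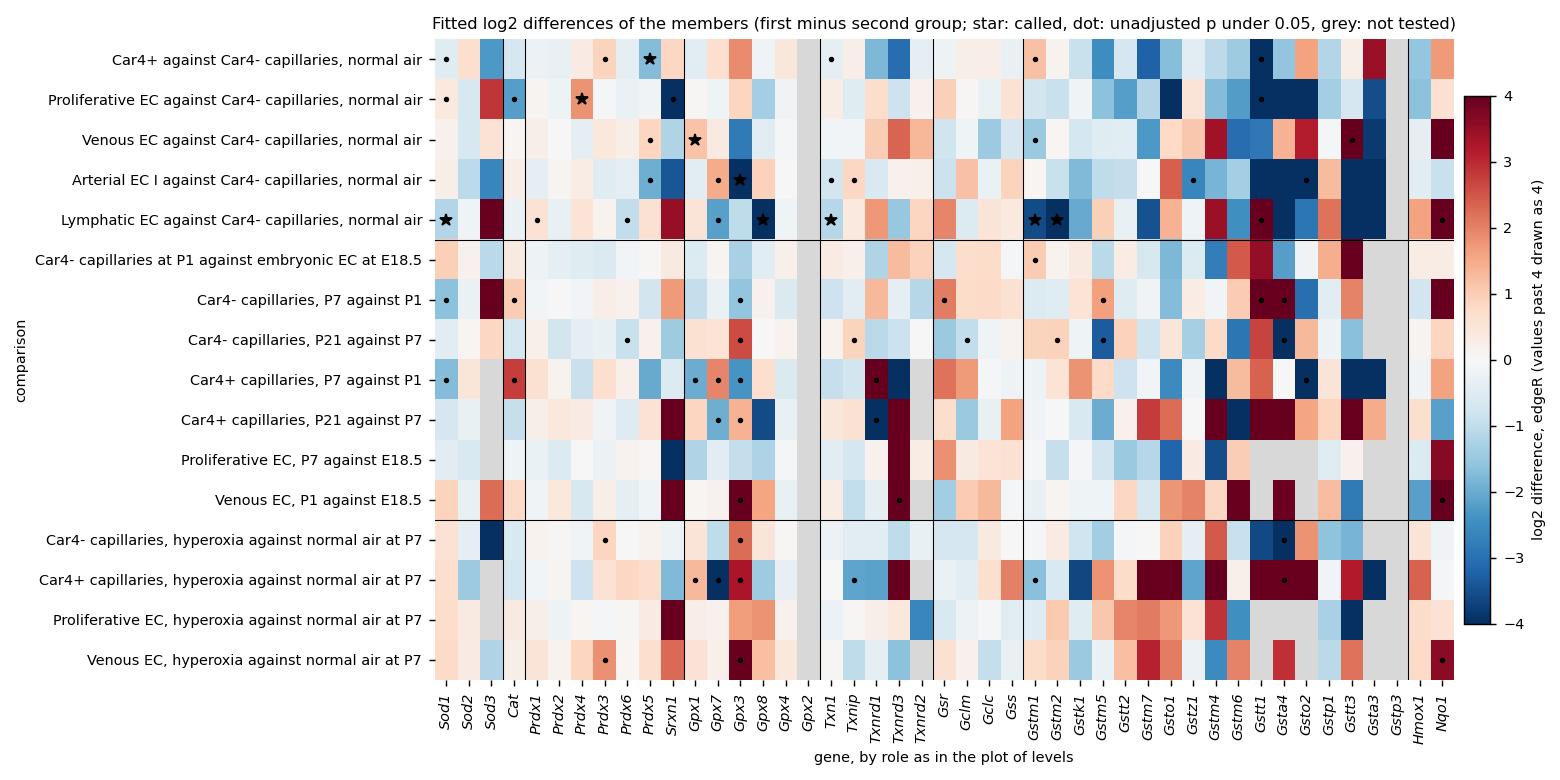
Fitted log2 difference of each of the 45 genes in the 16 comparisons as a colour, red where the first group is higher and blue where it is lower, with values past 4 drawn as 4, a star for a call, a dot for an unadjusted p under 0.05 and grey for genes not tested. The 9 stars all lie in the 5 comparisons of subtypes, and Gpx3 carries a dot in 3 of the 4 hyperoxia comparisons.

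Gpx3 had the smallest p of the set under hyperoxia. In Car4+ capillaries it had 714 and 588 CPM in the hyperoxia female and male against 72.8 and 43.7 in normal air, and the groups did not overlap. The hyperoxia values were also above the highest normal-air mouse of any age, the P1 male at 341 CPM. The means were 651 ± 89.6 and 58.3 ± 20.6 CPM (SD, n = 2 each), an 11.2-fold ratio. The fitted log2 difference was 3.26 (SE 0.53, p = 4.2e-05, adjusted p = 0.301 in edgeR). A read of Gpx3 was found in 89.5% and 51.4% of the Car4+ cells under hyperoxia and in 28.6% and 29.2% in normal air. It was called in 5 of 15 alternatives, namely by DESeq2, with no filter on low counts, in cells thinned to 50000 reads and without the P21 female or the P21 male, and adjusted p ran from 3.36e-07 to 0.685. Within the sequencing run that held both P7 males, Gpx3 had 588 CPM under hyperoxia and 54.5 in normal air. The Car4+ sum of the hyperoxia male also held 345 CPM of 5 erythroid genes, against 5.10 in the hyperoxia female and 8.84 and 11.6 in normal air, and the part of these reads in the result was not tested.

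The values of the other 3 subtypes were also higher under hyperoxia and did not pass the adjustment. Gpx3 in Car4- capillaries had 71.4 and 81.3 CPM under hyperoxia against 14.5 and 17.4 (log2 2.23, SE 0.64, p = 0.00409, adjusted p = 0.863 in edgeR), below the P21 male at 101 and near the P21 female at 77.7. In venous EC it had 28.6 and 72.6 CPM against 0 reads in 44 cells of normal air. For counting error alone this is at least 528-fold higher (p = 0.000574, adjusted p = 1 in edgeR). Reads were found in 26.1% and 20% of the venous cells under hyperoxia. In proliferative EC it had 169 and 74.5 CPM against 14.2 and 62.9 (log2 1.67, adjusted p = 1). In the run of the males the proliferative values were 74.5 and 71.0 CPM, closer than between the groups. Gpx3 was called in 4 of 15 alternatives in venous EC (adjusted p 1.76e-06 to 1), namely by DESeq2, with no filter and without the E18.5 female or male. It was called in 1 of 15 in Car4- capillaries (DESeq2, 0.0329) and in 0 of 15 in proliferative EC. Arterial EC I were at 0 in both hyperoxia mice.

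Gpx7 and Txnip lay lower in Car4+ capillaries under hyperoxia. Gpx7, a peroxidase of the endoplasmic reticulum (chr4:108400390-108406961), had 5.77 and 8.53 CPM in the hyperoxia female and male against 112 and 334 in normal air. The 2 hyperoxia values were below every normal-air mouse of any age, the lowest of which had 60.7 CPM over all its Car4+ cells. The fitted log2 difference was -5.30 (SE 0.88, p = 4.9e-05, adjusted p = 0.301 in edgeR), and it was called in 5 of 15 alternatives with adjusted p up to 1. Within the run of the males the values were 8.53 and 45.4 CPM, the latter from 18 CD31-gate cells of the P7 male. Its other 6 Car4+ cells were mesench-gate cells of another run, a gate absent from the Car4+ sums under hyperoxia. The 334 CPM over all 24 cells thus drew on both gates, and gate and run cannot be told apart there. In the other subtypes Gpx7 had 37.3 and 34.6 CPM against 39.7 and 103 in Car4- capillaries, 68.1 and 55.2 against 46.1 and 64.2 in proliferative EC, and 106 and 171 against 101 and 146 in venous EC. Whether the Car4+ difference differs from these was not tested.

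Txnip had 124 and 49.3 CPM in Car4+ capillaries under hyperoxia against 403 and 233 in normal air (log2 -2.11, SE 0.61, p = 0.00458, adjusted p = 0.731 in edgeR). The groups did not overlap, and both hyperoxia values were below all normal-air mice, the lowest of which was the P7 male. In the run of the males the values were 49.3 and, in the 18 CD31-gate cells of the P7 male, 443 CPM. Txnip in venous EC had 196 and 146 CPM against 384 and 302 (log2 -1.01, p = 0.0611, adjusted p = 1), also without overlap. In Car4- capillaries it had 286 and 228 against 354 and 323 CPM, and in proliferative EC 287 and 176 against 226 and 219.5.

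Gpx1 and Prdx3 were higher in some subtypes. Gpx1 had 195 and 219.5 CPM in Car4+ capillaries under hyperoxia against 82.1 and 61.0 (log2 1.30, p = 0.0377, adjusted p = 0.731 in edgeR), below the P1 mice at 236 and 362. Prdx3, the mitochondrial peroxiredoxin (chr19:60864051-60874556), had 232 and 229 CPM in venous EC against 38.2 and 95.9 (log2 1.82, p = 0.018, adjusted p = 1). In Car4- capillaries it had 189 and 157 CPM against 86.5 and 103 (log2 0.84, p = 0.0421, adjusted p = 0.887). In Car4+ capillaries its values were 140 and 366 against 148 and 136 CPM and overlapped.

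**Figure D5:**
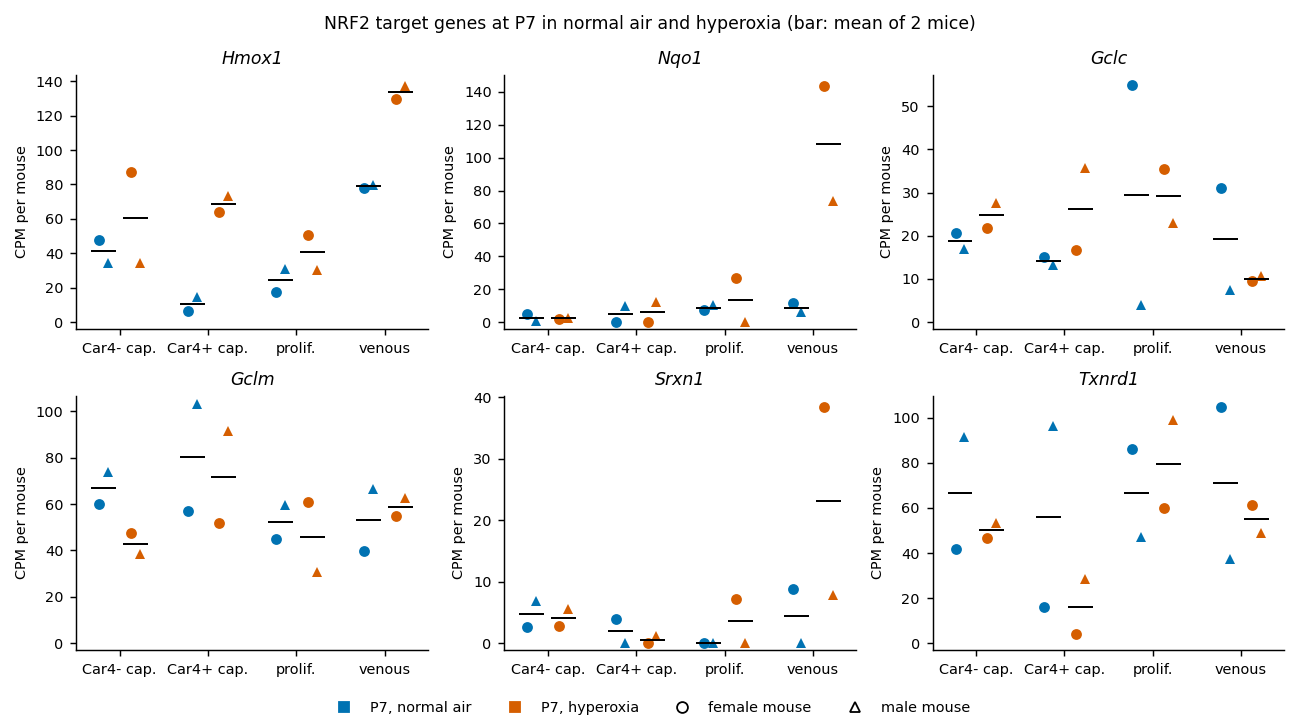
The 6 NRF2 targets Hmox1, Nqo1, Gclc, Gclm, Srxn1 and Txnrd1 at P7 in CPM on linear axes, 1 point per mouse, with normal air and hyperoxia side by side in 4 subtypes and a bar at the mean of 2 mice. The groups lie apart for Nqo1 in venous EC (143 and 73.4 against 11.5 and 5.96 CPM) and for Hmox1 in Car4+ capillaries (64.2 and 73.2 against 6.22 and 14.9 CPM). They also lie apart for Hmox1 in venous EC and Gclc in Car4- and Car4+ capillaries, higher under hyperoxia, and for Gclm in Car4- capillaries, lower. With 2 mice a group such separation can arise by chance, and the share of all genes that showed it was not counted.

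The 6 NRF2 targets were described under hyperoxia whatever their values. With n = 2 each, groups without overlap can arise by chance. The share of all genes without overlap was not counted, so it is not a result about these targets. Nqo1 had 143 and 73.4 CPM in venous EC of the hyperoxia female and male against 11.5 and 5.96 in normal air, without overlap. The means were 108 ± 49.5 and 8.75 ± 3.94 CPM (SD, n = 2 each). The fitted log2 difference was 3.60 (SE 1.42, p = 0.0258, adjusted p = 1 in edgeR). A read of Nqo1 was found in 65.2% and 50% of venous cells under hyperoxia and in 14.3% and 17.4% in normal air, and the values in the run of the males were 73.4 and 5.96 CPM. It was called in 0 of 15 alternatives, with adjusted p from 0.119 to 1. In Car4- capillaries Nqo1 had 2.06 and 2.75 CPM against 4.73 and 0.513, and in the other 2 subtypes the groups overlapped.

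Hmox1 had 64.2 and 73.2 CPM in Car4+ capillaries under hyperoxia against 6.22 and 14.9 in normal air (log2 2.37, SE 1.29, p = 0.0902, adjusted p = 0.731 in edgeR). No normal-air mouse of any age was above 20.5 CPM there over all its Car4+ cells. In the run of the males it had 73.2 CPM against 38.7 in the 18 CD31-gate cells of the P7 male. That value is above 20.5 CPM, and the distance was smaller than between the groups. Since all Car4+ cells of the P7 male together had 14.9 CPM, its other 6 cells held most reads of the sum. In venous EC it had 129.6 and 137 CPM against 78.2 and 79.7 (log2 0.77, adjusted p = 1), and the groups overlapped in Car4- capillaries (87.1 and 34.2 against 47.6 and 34.5) and proliferative EC (50.7 and 30.5 against 17.7 and 30.9).

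The glutathione and thioredoxin targets lay closer between the groups. Gclm, the modifier subunit of glutamate-cysteine ligase, had 47.5 and 38.5 CPM in Car4- capillaries under hyperoxia against 60.1 and 73.9 (log2 -0.67, SE 0.44, adjusted p = 0.979 in edgeR). Gclc, its catalytic subunit, had 21.9 and 27.6 against 20.6 and 16.96 CPM there (log2 0.37, SE 0.72, adjusted p = 1). Txnrd1, which reduces thioredoxin in the cytosol, had 46.9 and 53.2 against 41.6 and 91.6 CPM (log2 -0.43, SE 0.63, adjusted p = 1). Srxn1, which repairs over-oxidized peroxiredoxins, had 2.78 and 5.54 against 2.59 and 6.84 CPM. The groups did not overlap for Gclm, lower under hyperoxia, or Gclc, higher, and overlapped for Txnrd1 and Srxn1.

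In Car4+ capillaries the same genes had 51.8 and 91.7 against 57.2 and 103 CPM (Gclm), 16.8 and 35.7 against 15.2 and 13.3 (Gclc), 4.26 and 28.3 against 15.9 and 96.5 (Txnrd1), and 0 and 1.18 against 3.89 and 0 (Srxn1). In proliferative EC Gclm had 60.9 and 30.7 against 44.97 and 59.4 CPM, Gclc 35.5 and 22.9 against 54.8 and 4.02, Txnrd1 59.9 and 98.98 against 86.1 and 47.1, and Srxn1 7.24 and 0 against 0 and 0. In venous EC Gclm had 54.7 and 62.8 against 39.9 and 66.5 CPM, Gclc 9.42 and 10.7 against 31.0 and 7.45, Txnrd1 61.2 and 48.9 against 105 and 37.2, and Srxn1 38.3 and 7.85 against 8.87 and 0. Of these only Gclc in Car4+ capillaries did not overlap. None of Gclm, Gclc, Txnrd1 or Srxn1 had an unadjusted p under 0.05 in any of the 4 subtypes, which at 2 mice a group does not show that they stayed the same.

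The regulators of NRF2 and the cystine carrier were described in the same way. Nfe2l2, which encodes NRF2, had 162 and 121 CPM in Car4- capillaries under hyperoxia against 194 and 124 in normal air, and 190.2 and 169 against 225 and 81.0 in Car4+ capillaries. Keap1 had 27.8 and 37.8 against 31.3 and 44.3 CPM in Car4- capillaries, and Bach1, a repressor at the same element, had 26.6 and 31.9 against 25.8 and 71.4. Slc7a11, the cystine carrier that feeds glutathione synthesis, stayed at or below 3.16 CPM in all 16 sums of the 4 subtypes at P7. None of these 4 genes had an unadjusted p under 0.05 in any of the 4 subtypes, and edgeR called 0 of the 53 other pathway genes under hyperoxia.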

How the data were processed

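Per the labels, the data are read counts of single sorted cells from plate-based Tn5 libraries. The deposited table holds whole-number counts per gene and cell, which the authors left without normalization. Per the submitters' processing notes, reads were aligned with STAR 2.5.2b and counted with HTSeq 0.10. The notes name GRCh38, a human build name for these mouse samples, so the build behind the counts is uncertain, and the annotation and strand setting are not given in the sources used here. Positions and exon lengths are those of GENCODE M21 (GRCm38), joined by symbol.

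From these counts, reads were summed per mouse and subtype (at least 8 cells) and scaled to 1000000 reads (CPM) or also by exon length (RPKM). 0 of 2931 cell names occurred more than once. Sums were tested with edgeR 4.0.16 (TMM, filterByExpr, quasi-likelihood F test), Benjamini-Hochberg over all genes tested, called at an adjusted p under 0.05. The subtype fit had the mouse as a term (26 sums of 6 mice, 15 residual degrees of freedom), the birth fit had 5 and the fits of single subtypes 4 residual degrees of freedom. The standard error is the log2 difference divided by the root of F. The scripts were tested on simulated data.

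Alternatives were DESeq2 1.42.0, limma 3.58.1 on log2(mean CPM + 1), RLE scaling, no filter, CD31-gate cells alone, cells thinned to 50000 reads (11 cells with fewer were left out), sex as a block, no mouse term, hyperoxia mice added, and each mouse left out. A group at 0 reads was given a floor of 3 reads over the group, and such bounds cover counting error only. Sequencing runs are those in the labels. The female CD31-gate cells of E18.5, P1 and P21 share a run, and so do the male CD31-gate cells of E18.5, P7, P21 and hyperoxia. The CD31-gate cells of the hyperoxia female came from a run without cells of P7 in normal air. The CD31-gate cells of the P7 female shared a run with 65 mesench-gate cells of the P21 female, and those of the P1 male with 120 mesench-gate cells of the P21 male and 12 cells of the P7 male.

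The members, lists and tests were chosen with earlier results of these data known. Genes named with their values are those called in any of the 16 comparisons, the highest of each role by RPKM, under hyperoxia up to 3 per direction with an unadjusted p under 0.05, no overlap and at least 10 CPM in the higher group, the 6 NRF2 targets, and Nfe2l2, Keap1, Bach1 and Slc7a11. Gstm5 and the other genes named at the steps of age or between subtypes without a call were chosen after their values were seen.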

Additional observations from a re-analysis of the deposited data

Results flagged for a closer look

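Some genes differed in direction between subtypes, with every mouse on its own side, and these differences were not tested. With 2 mice a group such separation can arise by chance. The share of all genes that showed it was not counted, so it is not known whether the members did so more often. Gpx8 under hyperoxia had a mean of 31.3 CPM against 68.7 in normal air in Car4+ capillaries, where both mice were lower. It had 88.5 against 25.1 CPM in proliferative EC and 65.2 against 29.1 CPM in venous EC, where both mice were higher. Gstm4 under hyperoxia had 10.99 against 1.97 CPM in Car4- capillaries and 4.16 against 23.8 CPM in venous EC. Prdx2 at P21 had 290.2 against 522 CPM at P7 in Car4- capillaries and 347 against 252 CPM in Car4+ capillaries. None of these genes had an unadjusted p under 0.05 in edgeR in the comparisons named.

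Lymphatic EC of the hyperoxia female, 14 cells, entered none of the 16 comparisons since the male had 6 cells, under the minimum of 8. They were used only where hyperoxia mice were added to the fit of subtypes. Nqo1 was at 466 CPM there, above the highest other lymphatic sum at 69.1. Sod3, the extracellular dismutase, was at 56.2 CPM against at most 3.84. Gpx8 was at 30.0 CPM, where the other 3 lymphatic sums were at 0.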

How the results depend on the processing

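With 2 mice a group, single mice decided many calls. Of 237 counts of called members under an alternative 187 were equal to the main count or within 1.5 times of it. The main count was 0 in every comparison of age and hyperoxia, and 0 against 0 was counted as equal. The 187 are therefore not a measure of how stable the results are. Of 126 alternatives for the 9 called gene differences 100 kept the call, 26 lost it and 0 changed sign. In parentheses stands the share of all genes that the same setting called. DESeq2 called 2 members in Car4+ capillaries (11.5%), 5 in proliferative EC (5.62%), 3 in venous EC (6.25%), 6 in arterial EC I (14.3%) and 9 in lymphatic EC (10.2%), where edgeR called 1, 1, 1, 1 and 5. Among the comparisons of age where edgeR called 0, DESeq2 called 1 (2.71%) and 2 (4.76%) in Car4- capillaries at P7 against P1 and P21 against P7, 2 (2.08%) and 2 (2.1%) in Car4+ capillaries, and 3 (4.37%) in venous EC at P1 against E18.5. Under hyperoxia it called 1 (1.25%) in Car4- capillaries, 3 (2.16%) in Car4+ capillaries and 1 (0.746%) in venous EC. limma called 4 (5.8%) in Car4+ capillaries, 2 (3.42%) in venous EC and 2 (2.38%) in arterial EC I. Thinned cells gave 4 (6.22%) in Car4+ capillaries and 2 (2.97%) in venous EC, 1 (0.00959%) in Car4+ capillaries under hyperoxia and 1 (0.182%) in venous EC at P1 against E18.5. With no mouse term the counts were 0 (3.34%) in Car4+ capillaries, 0 (1.03%) in venous EC and 3 (3.42%) in lymphatic EC. With hyperoxia mice added they were 2 each in Car4+ capillaries (6.24%), venous EC (3.21%) and arterial EC I (2.04%). With no filter on low counts 2 (0.159%) were called in Car4+ capillaries under hyperoxia, 3 (0.611%) in venous EC at P1 against E18.5 and 1 (0.0787%) in venous EC under hyperoxia. Leaving out each mouse gave 0 to 1 in Car4+ capillaries, proliferative EC, venous EC and arterial EC I, and 1 to 5 in lymphatic EC. It gave 0 to 1 in Car4- capillaries at P21 against P7, 0 to 2 in Car4+ capillaries under hyperoxia, 0 to 6 in venous EC at P1 against E18.5, and 0 to 1 in venous EC under hyperoxia. No share of all genes stands beside these ranges. They therefore do not show whether members were called more often than other genes. The cause of these changes was not tested. Against TMM, RLE scaling moved the median of all genes by 0.12 (log2) in proliferative EC, 0.11 in venous EC, 0.16 in arterial EC I and 0.26 in lymphatic EC, and by less than 0.1 elsewhere. The fit of subtypes is paired by mouse. For age and hyperoxia no label pairs the mice, and with sex as a block 0 members were called in each comparison, as without it.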
